A study of Mus musculus with 47 samples.

Results

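Mammary epithelium from parous mice was compared with that of age-matched mice that had never been pregnant, in luminal and in basal cells. The comparison used 12 of the 46 libraries with values, which were chosen by the time point in their labels alone: 3 luminal and 3 basal libraries at each of the time points month 4 (M4) and involution week 4 (Iw4). Another sample of the series, a basal one from pregnancy, was not analysed here. M4 mice were nulliparous FVB/N females of 4 months of age. Iw4 mice were FVB/N females that had been pregnant and lactating, had their pups removed by forced weaning, and were taken 4 weeks after weaning. FVB/N is an inbred strain, no transgene or agent is given for either group, and the labels class both as non-pregnant. Each replicate was a pool of several mice, because the stage of the estrous cycle differs between animals, and its luminal (Lin-CD24+CD29lo) and basal (Lin-CD24+CD29hi) cells came from the same sort, with gates adjusted slightly at each sort. The amount of RNA was small and it was amplified in 3 batches, each of which held 1 M4 and 1 Iw4 replicate of both cell types. Batch 1 held M4 replicate 2 and Iw4 replicate 3, batch 2 held M4 replicate 1 and Iw4 replicate 5, and batch 3 held M4 replicate 6 and Iw4 replicate 6. Where 6 values are given for a gene, they are those of M4 replicates 1, 2 and 6 and then Iw4 replicates 3, 5 and 6.

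The mammary epithelium has a luminal layer, whose cells make milk in the alveoli, and an outer basal layer of contractile myoepithelial cells that also holds cells able to rebuild a gland. After weaning most of the secretory epithelium dies and the gland is remodelled to a ductal tree that looks much like that of a virgin animal. A completed pregnancy is known to lower the later risk of mammary cancer in rodents and in women, which is why the epithelium of parous animals is compared with that of nulliparous ones.

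The M4 libraries held 5549247 to 6901489 reads on genes in luminal cells and 4980557 to 8171848 in basal cells. The Iw4 libraries held 4654463 to 6499961 and 4398806 to 5763600. All values are CPM, reads scaled by the authors to the effective size of the library, and fold changes are differences of log2(CPM + 1), a scale that makes those of weakly expressed genes too small. Levels under 3 reads, which is 0.276 to 0.535 CPM in these 12 libraries, were treated as not measurable. The markers of the gates followed the labels. The summed level of 9 luminal markers such as Krt8 and Krt18, the keratins of simple epithelia, was 4385 to 7996 CPM in the luminal libraries and 818 to 1965 CPM in the basal ones. The 9 basal markers, among them the keratin Krt5 and the smooth muscle actin Acta2, summed to 10979 to 18184 CPM in basal and 359 to 665 CPM in luminal libraries. In neither list did the cell types overlap.

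In luminal cells no gene of the 17078 in the table was called between Iw4 and M4 (0%, limma, fold change of at least 2 and Benjamini-Hochberg adjusted p under 0.01). At an unadjusted p under 0.05 limma gave 392 genes (2.3%), of which 147 were higher (0.861%) and 245 lower (1.43%) in parous cells. In basal cells 1 gene was called, Tmem215, which was lower at Iw4 (0.00586%), and 322 genes had an unadjusted p under 0.05 (1.89%), 203 higher (1.19%) and 119 lower (0.697%). Neither share exceeded the 0.05 that such a cut gives when no gene differs, so the counts show no excess. These counts depend on the libraries that set the spread. They were 743 luminal and 713 basal genes with the 12 libraries alone and 1230 and 960 with amplification batch in that fit. The quasi-likelihood test of edgeR on the recovered reads called 0 genes in either cell type, with 343 and 228 genes at an unadjusted p under 0.05. The difference between the cell types in their parous against nulliparous contrast was tested in the same model and was called for 0 genes, with 215 at an unadjusted p under 0.05 (1.26%, edgeR 0 called and 177). That number was 355 with the sort as a block, 536 with the 12 libraries alone and 780 with amplification batch, and 0 genes were called in each of these fits. For comparison, the same model called 1233 luminal genes (7.22%, of which 4.15% higher and 3.07% lower in lactation) and 2094 basal genes (12.3%, of which 7.09% higher and 5.18% lower) between lactation day 10 (L10) and the virgin gland at 10 weeks (W10), a contrast that shares no library with this one.

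The spread of fitted differences was narrow beside that of lactation. A fitted change of at least 2-fold was found for 215 luminal genes (1.26%) and 99 basal genes (0.58%) between Iw4 and M4, against 2961 (17.3%) and 4418 (25.9%) between L10 and W10. From the 1st to the 99th percentile the log2 fold changes of all genes ran from -0.96 to 0.80 in luminal and from -0.71 to 0.81 in basal cells, whereas those of L10 against W10 ran from -1.91 to 2.67 and from -2.50 to 4.16. M4 and Iw4 libraries shared lane and amplification batches, whereas L10 and W10 differed in both, and basal L10 had 2 libraries. An 8-fold difference was reached by 1 luminal and 0 basal genes at Iw4 and by 152 and 474 genes at L10. The median standard error of a fold change was 0.35 in log2 units, so that the median 95% confidence interval reached 0.71 to either side. The interval lay wholly within a 2-fold change in both directions for 10079 luminal genes (59.0%) and 10189 basal genes (59.7%). In the fit of the 12 libraries alone with batch these shares were 78.7% and 78.1%. For the remaining genes the interval reached past a 2-fold change in at least 1 direction.

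**Figure D1:**
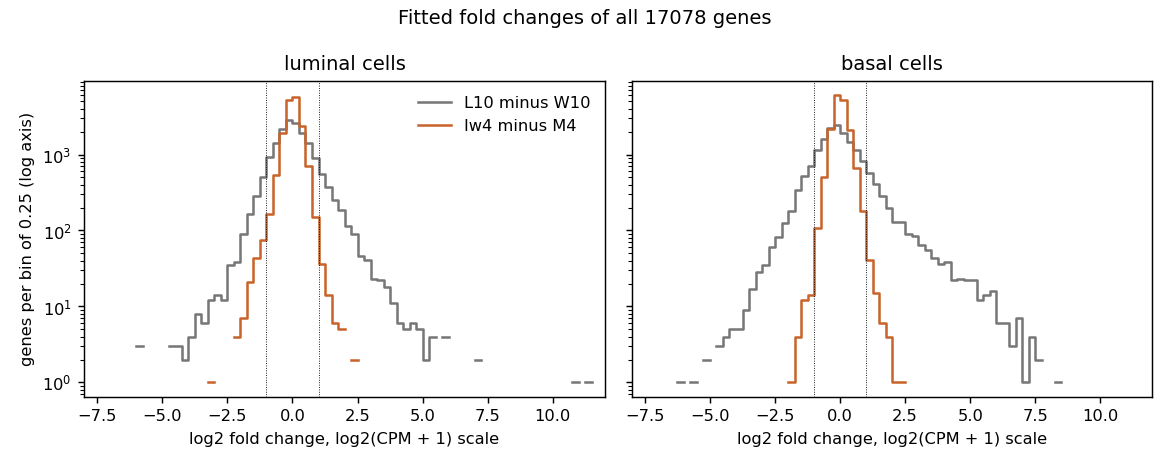
Number of genes (log axis, bins of 0.25) by log2 fold change for Iw4 minus M4 and for L10 minus W10, in luminal (left) and basal cells (right), with dotted lines at a 2-fold change. The distribution of the parous contrast is narrow, with 215 luminal and 99 basal genes past 2-fold, and that of lactation is wide, with 2961 and 4418.

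Libraries of the groups were as alike as libraries of a group. The squared correlation across genes between a pair of luminal libraries of the same group was 0.925 to 0.954 (median 0.947, 6 pairs). Between an M4 and an Iw4 luminal library it was 0.947 to 0.956 within an amplification batch (median 0.954, 3 pairs) and 0.930 to 0.955 across batches (median 0.941, 6 pairs). In basal cells the corresponding medians were 0.938, 0.944 and 0.944. These are descriptions across genes, which share library and depth.

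Tmem215 (ENSMUSG00000046593), which encodes a transmembrane protein, was the only gene called. Its basal values were 2.14, 1.56 and 3.35 CPM in M4 and 0, 0 and 0.490 CPM in Iw4. The lowest M4 library was thus above each Iw4 library, and the Iw4 libraries were at 0 or at the level of 3 reads. Its fitted log2 fold change was -1.52 (SE 0.21, limma adjusted p = 0.000201), and it was -1.36, -1.65 and -1.55 within batches 1, 2 and 3. The call rests on few reads, and the size of the change depends on the pseudocount (-3.70 with 0.1 in place of 1). Without Iw4 replicate 3 the gene missed the threshold (adjusted p = 0.0133). It was not called by edgeR (log2 fold change -3.77, unadjusted p = 0.00124, adjusted p = 1), nor with the spread of these 12 libraries alone (adjusted p = 0.108) nor with batch in that fit (adjusted p = 0.178). Over the other time points the basal mean was 2.81 CPM at W10, 5.01 CPM at pregnancy day 3.5 (P3.5) and 0 at L10 and 2 days after weaning (Id2). In luminal cells the gene was at or under 0.128 CPM in all 6 libraries. It was named after its values were seen.

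Because so few genes were called, the genes below were taken by a rule chosen after the values were seen: unadjusted p under 0.05, groups that do not overlap, the same sign in each amplification batch, and a mean of at least 5 CPM in the higher group. It was met by 26 genes higher and 93 lower in parous luminal cells, and by 31 higher and 31 lower in parous basal cells. Of all genes, groups did not overlap for 4.5% (Iw4 higher) and 4.06% (Iw4 lower) in luminal cells, and for 4.2% and 4.47% in basal cells. The sign was the same in each batch for 13.9% (Iw4 higher) and 11.9% (Iw4 lower) in luminal cells, and for 11% and 12.2% in basal cells. Genes were taken from the 12 of each direction with the largest fold change, and these are plotted. Apart from the exceptions given with the gene, none of them passed the adjusted threshold, and their values describe these libraries.

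**Figure D2:**
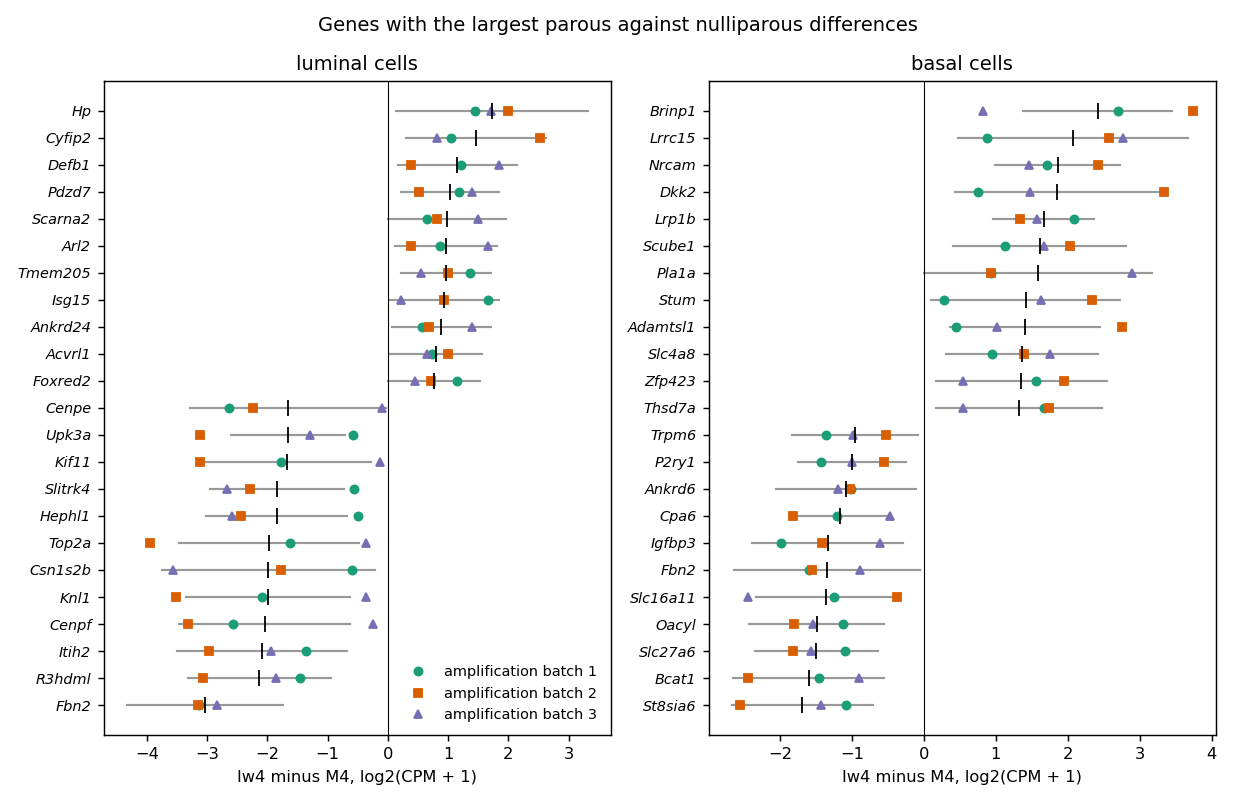
Log2 fold change of Iw4 minus M4 on the log2(CPM + 1) scale for genes from the 12 of largest change in each direction, in luminal (left) and basal cells (right). Points are the differences within amplification batches 1, 2 and 3, black ticks the fitted change and grey lines its 95% confidence interval, and by the rule that chose them all 3 points of a gene lie on the same side of 0.

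Fbn2 (ENSMUSG00000024598), which encodes fibrillin-2, a protein of extracellular microfibrils, had the largest luminal difference. Its luminal values were 24.5, 15.6 and 22.6 CPM in M4 and 0.902, 1.88 and 2.30 CPM in Iw4. The highest parous library was well below the lowest nulliparous one, and the within-batch differences were -3.13, -3.14 and -2.84. The fitted log2 fold change was -3.04 (SE 0.64, 95% interval -4.33 to -1.74), with a limma adjusted p of 0.394 when all 46 libraries set the spread. With the spread of these 12 libraries alone the gene was called (adjusted p = 0.00396), as it was with batch in that fit (adjusted p = 0.00682). In basal cells Fbn2 was at 57.1, 94.5 and 75.0 CPM in M4 and at 30.7, 18.8 and 40.2 CPM in Iw4. These groups did not overlap either, with a log2 fold change of -1.34 (SE 0.64, unadjusted p = 0.0423).

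Of the 12 luminal genes with the largest change in the lower direction, 5 were genes of cell division (Cenpf, Knl1, Top2a, Kif11 and Cenpe), which are described with their list. Itih2, a heavy chain of the inter-alpha-trypsin inhibitor family that binds hyaluronan, was at 37.6, 35.3 and 21.5 CPM in M4 and at 13.1, 3.93 and 4.85 CPM in Iw4 (log2 fold change -2.09, SE 0.70). R3hdml stood at 24.6, 28.0 and 10.1 CPM against 9.53, 2.05 and 2.04 CPM (-2.13, SE 0.58), where the highest Iw4 library was just under the lowest M4 library. Upk3a, a uroplakin of specialised epithelial membranes, was at 7.69, 7.56 and 5.49 CPM against 4.77, 0 and 1.66 CPM (-1.66, SE 0.47). It was called when Iw4 replicate 3 was left out (adjusted p = 0.00901).

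Among the 26 luminal genes that met the rule in the higher direction, Hp had the largest difference. It encodes haptoglobin, the plasma protein that binds free haemoglobin. Its values were 107, 102 and 33.1 CPM in M4 and 280.5, 431 and 111 CPM in Iw4 (log2 fold change 1.72, SE 0.79, unadjusted p = 0.0349), so that the lowest Iw4 library was barely above the highest M4 library. Within batches the difference was similar, at 1.45, 2.00 and 1.71. Leaving out single replicates gave log2 fold changes from 1.18 to 2.27. The limma unadjusted p was 0.190 without M4 replicate 6, 0.152 without Iw4 replicate 5 and 0.0734 without Iw4 replicate 3, and under 0.05 without any of the others. It was 0.108 with a pseudocount of 0.1 and 0.00253 in the fit of the 12 libraries with batch. In basal cells Hp was at 13.1, 16.5 and 13.7 CPM in M4 and at 94.3, 55.5 and 8.99 CPM in Iw4, where the groups overlapped. Defb1, an antimicrobial beta-defensin, was at 12.5, 11.5 and 3.04 CPM against 28.0, 16.7 and 13.5 CPM in luminal cells (1.15, SE 0.49). Acvrl1, a receptor for BMP ligands, was at 7.69, 6.73 and 5.49 CPM against 11.9, 16.4 and 9.19 CPM (0.79, SE 0.38).

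Among the 31 basal genes that met the rule in the higher direction, the largest difference was that of Brinp1, named for its induction by BMP and retinoic acid in neural cells. It was at 3.05, 1.38 and 14.3 CPM in M4 and at 14.4, 53.0 and 26.2 CPM in Iw4. M4 replicate 6 was nearly as high as the lowest Iw4 library. The log2 fold change was 2.42 (SE 0.51, limma adjusted p = 0.138), and the gene was called when M4 replicate 6 was left out (3.19, adjusted p = 0.00358). Lrp1b, an endocytic receptor of the LDL receptor family, was at 2.95, 2.30 and 3.51 CPM against 13.0, 9.01 and 12.4 CPM (1.67, SE 0.35, adjusted p = 0.138). This was the most even of these differences, with 2.09, 1.34 and 1.57 within batches and the groups well apart. Nrcam, an adhesion molecule of the immunoglobulin superfamily, was at 5.90, 4.04 and 1.98 CPM against 15.5, 35.8 and 7.19 CPM (1.86, SE 0.43). Thsd7a, a membrane protein with thrombospondin repeats, was at 76.7, 41.2 and 72.2 CPM against 133, 258 and 106 CPM (1.32, SE 0.57), and Iw4 replicate 5 was the highest library for both. Zfp423, a zinc finger transcription factor, was at 9.97, 11.4 and 20.4 CPM against 35.7, 41.4 and 30.4 CPM (1.36, SE 0.58).

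The secreted Wnt modulator Dkk2 was at 0.203, 0.643 and 0.305 CPM in nulliparous and at 1.78, 11.2 and 2.62 CPM in parous basal cells (1.86, SE 0.70). In M4 replicates 1 and 6 it was under the level of 3 reads, so the size of its change cannot be read closely. Lrrc15, a leucine-rich repeat membrane protein also found on activated fibroblasts, was at 0.203, 2.76 and 3.81 CPM against 5.88, 6.19 and 31.7 CPM. Its M4 replicate 1 was also under 3 reads, and Iw4 replicate 6 was far above the others. Pla1a, a secreted phospholipase, was likewise highest in that library (1.22, 1.10 and 1.52 CPM against 3.03, 3.23 and 17.8 CPM). The summed level of 12 fibroblast markers was also highest there, at 2091 CPM against 285, 708 and 495 CPM in the M4 and 385 and 818 CPM in the other Iw4 basal libraries. Its part in the values of these genes was not tested.

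Among the basal genes that were lower in parous cells, St8sia6, a sialyltransferase, was at 76.7, 60.9 and 56.7 CPM in M4 and at 28.3, 12.2 and 20.4 CPM in Iw4 (log2 fold change -1.69, SE 0.48). Igfbp3, a binding protein for insulin-like growth factors, was at 307, 378 and 307 CPM against 94.5, 115 and 202 CPM (-1.33, SE 0.52, unadjusted p = 0.0140), and the within-batch differences were -1.99, -1.41 and -0.60. In both genes, as by the rule in all those chosen as lower, each parous library was below each nulliparous one. Bcat1, the cytosolic branched-chain aminotransferase, was at 9.56, 10.0 and 11.0 CPM against 3.03, 0.941 and 5.39 CPM (-1.60, SE 0.52). Slc27a6, a fatty acid transport protein, was at 6.81, 8.73 and 7.77 CPM against 3.57, 1.21 and 1.96 CPM (-1.49, SE 0.42). P2ry1, a receptor for ADP, was at 13.5, 16.6 and 11.4 CPM against 5.53, 8.87 and 5.23 CPM (95% interval of the log2 fold change -1.74 to -0.25).

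Genes of cell division were at lower luminal levels in the parous library in 2 of the 3 batches, and the size of the fitted difference depended on 1 parous and 1 nulliparous sort. All 29 genes of the list had a fitted difference below 0 in luminal cells (47.2% of all genes), with a median log2 fold change of -1.39 beside 0.01 for all genes. Of the 29, 13 had an unadjusted p under 0.05 in that direction (1.43% of all genes), the groups of 9 did not overlap with Iw4 lower (4.06% of all genes), and 0 were called. The median difference was -1.38 in batch 1 and -2.40 in batch 2 but 0.07 in batch 3. The summed level of the list was 1172, 2133 and 933 CPM in M4 and 791, 229 and 930 CPM in Iw4, so that Iw4 replicate 5 was the lowest and M4 replicate 2 the highest library. Without Iw4 replicate 5 the median was -0.60, with 27 of the 29 genes below 0 and 0 at an unadjusted p under 0.05. Without M4 replicate 2 it was -1.02, with 27 below 0 and 3 at an unadjusted p under 0.05. In the fit of the 12 libraries with batch 16 of the 29 genes were under 0.05 (1230 of all genes). Leaving out any of the other 4 libraries gave medians between -1.46 and -1.70. Luminal Iw4 replicate 5 also stood apart in the immediate early genes. They summed to 16057 CPM there and to 6535 to 10630 CPM in the other luminal libraries. In basal cells that sort lay within the range of the others, at 17845 CPM. A link with the cell division values was not tested.

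Top2a, the topoisomerase that untangles replicated chromosomes, was at 148, 242 and 91.0 CPM in M4 and at 78.0, 8.70 and 70.4 CPM in Iw4 (log2 fold change -1.98, SE 0.74, unadjusted p = 0.0111). Mki67, the proliferation marker that coats mitotic chromosomes, was at 204, 514 and 183 CPM against 57.6, 19.5 and 186 CPM (-2.14, SE 0.78). Cenpf, a protein of the kinetochore, was at 47.9, 91.7 and 41.2 CPM against 14.7, 3.93 and 34.6 CPM (-2.04, SE 0.70). In each of them Iw4 replicate 6 was close to its batch partner, and for Mki67 it lay above the lowest M4 library. The smallest fitted differences of the list were those of the replication clamp Pcna, which was at 94.8, 92.2 and 62.9 CPM against 89.0, 53.9 and 66.8 CPM (-0.26, SE 0.27), and of the helicase subunit Mcm7, at 15.5, 26.3 and 10.2 CPM against 21.3, 7.34 and 14.9 CPM (-0.26, SE 0.40).

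In basal cells the list showed no such difference. Its fitted differences were below 0 for 23 and above 0 for 6 of the 29 genes (51.7% and 48% of all genes), with a median of -0.15, and 0 had an unadjusted p under 0.05. The summed levels were 393, 2011 and 404 CPM in M4 and 835, 262 and 1026 CPM in Iw4. The median within batches was -1.17, -0.57 and 1.32, and without Iw4 replicate 5 or without M4 replicate 2 it was above 0 (0.49 and 0.62). The same sorts were extreme in both cell types, since M4 replicate 2 was highest and Iw4 replicate 5 lowest in luminal and in basal cells. The difference between the cell types in the contrast had a median of 1.10 over the list, and 0 of its genes had an unadjusted p under 0.05 for it (1.26% of all genes), against 2 with the sort as a block (355 of all genes). The summed basal level was 33.5%, 94.3% and 43.3% of the luminal level of the same sort in M4 and 106%, 114% and 110.3% in Iw4, which did not overlap. In bulk samples fewer dividing cells and less RNA per dividing cell cannot be told apart, and the same holds for each gene group below.

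**Figure D3:**
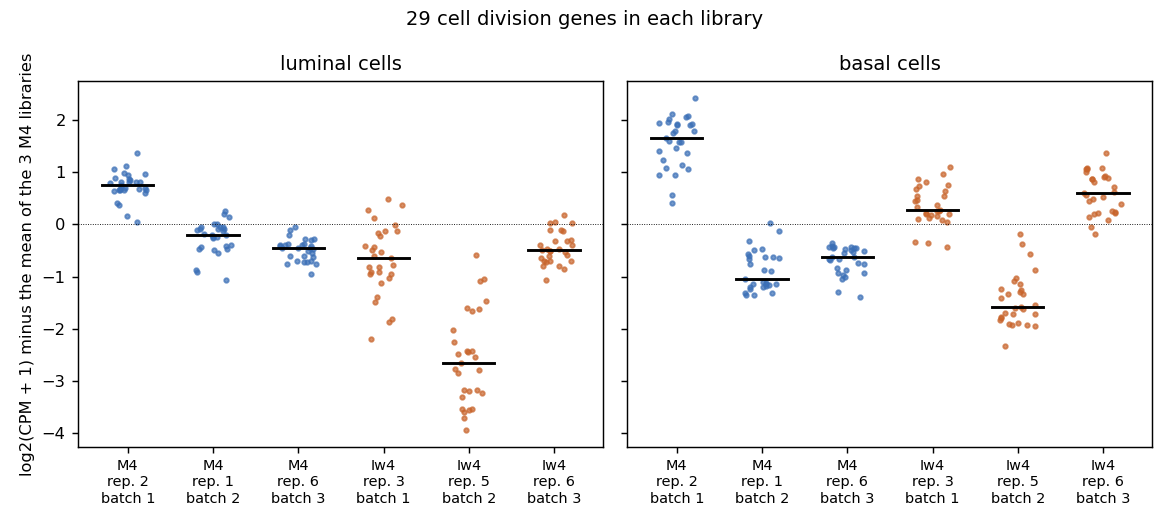
Log2(CPM + 1) of the 29 cell division genes in each library, as the difference from the gene's mean over the 3 M4 libraries of that cell type, in luminal (left) and basal cells (right). Points are genes and bars their medians, and libraries are ordered by group and amplification batch. M4 replicate 2 is high and Iw4 replicate 5 low in both cell types.

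The promoters of 3 genes of the cell division list are shown as examples, and whether their levels moved together was not tested. They are the RefSeq windows of 250 bases before to 50 bases after the start of the gene, in GRCm38.p6 and on the strand of the gene, which for all of them is the minus strand. Capitals mark CCAAT, the site of the factor NF-Y, and TTTGAA, the cell cycle homology element, on either strand. The windows are Top2a at chr11:99024140-99024439, Cenpf at chr1:189688037-189688336 and Ccnb1, a mitotic cyclin, at chr13:100786437-100786736.
Top2a: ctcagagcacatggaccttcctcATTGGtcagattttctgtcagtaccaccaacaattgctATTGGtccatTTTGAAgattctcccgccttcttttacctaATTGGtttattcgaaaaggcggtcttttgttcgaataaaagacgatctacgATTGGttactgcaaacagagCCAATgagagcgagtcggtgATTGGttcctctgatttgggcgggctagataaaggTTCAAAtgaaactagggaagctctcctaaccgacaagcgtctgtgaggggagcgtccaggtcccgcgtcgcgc
Cenpf: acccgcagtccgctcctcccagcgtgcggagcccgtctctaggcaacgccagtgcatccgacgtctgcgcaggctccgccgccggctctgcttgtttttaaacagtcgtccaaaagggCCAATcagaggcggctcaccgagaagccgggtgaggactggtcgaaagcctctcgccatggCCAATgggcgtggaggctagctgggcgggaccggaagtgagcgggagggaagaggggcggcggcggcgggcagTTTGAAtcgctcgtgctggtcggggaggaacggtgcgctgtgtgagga
Ccnb1: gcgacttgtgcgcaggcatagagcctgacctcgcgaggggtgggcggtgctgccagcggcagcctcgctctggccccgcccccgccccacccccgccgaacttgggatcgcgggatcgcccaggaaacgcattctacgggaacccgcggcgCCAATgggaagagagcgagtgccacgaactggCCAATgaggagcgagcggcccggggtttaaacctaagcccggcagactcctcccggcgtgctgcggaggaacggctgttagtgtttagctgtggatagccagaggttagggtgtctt

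The Top2a window held 6 CCAAT and 2 TTTGAA matches, that of Cenpf 2 and 1, and that of Ccnb1 2 and 0. Windows were found for 24 of the 29 genes (26 windows). CCAAT occurred in 23 of the 26 (88.5%), against 36.8% of the 14951 windows of genes in the table, and TTTGAA in 13 (50%), against 12.4%. The other 4 strings were searched on both strands as well, and matches of different strings may overlap. TTCGAA was in 4 of the 26 windows (15.4%, all genes 2%), TTTCGCGC, which E2F factors bind, in 4 (15.4%, all genes 0.542%), the E-box CACGTG in 1 (3.85%, all genes 9.25%) and the STAT site TTCNNNGAA in 1 (3.85%, all genes 6.88%). A match is only a run of letters in this window.

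None of the milk protein genes was called between parous and nulliparous cells, and their spread was wide. In luminal cells 5 of the 11 genes had a fitted difference above and 6 below 0, with a median of -0.07, and 1 was lower at an unadjusted p under 0.05 (1.43% of all genes). Csn2, which encodes beta-casein, was at 8499, 19165 and 34109 CPM in M4 and at 31228, 9995 and 15302 CPM in Iw4, groups that overlapped. Its log2 fold change was -0.07 with a 95% interval of -1.78 to 1.63, so that a 3-fold difference in either direction could not be told from none. Wap, the whey acidic protein, was at 56.5, 47.5 and 582 CPM against 203, 21.7 and 32.6 CPM (-1.13, SE 1.04). The gene with an unadjusted p under 0.05 was Csn1s2b, the casein alpha s2-like B gene, at 5.36, 4.04 and 28.9 CPM against 2.32, 0.853 and 1.53 CPM (-1.98, SE 0.88). The sign of the list's median differed between batches, at 0.93, 0.17 and -1.43, and leaving out single replicates gave medians from -0.48 to 0.40.

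The level of milk protein RNA differed between sorts more than between the groups, and it did so in both gates. The summed luminal level was 25422, 44902 and 84604 CPM in M4 and 77914, 36005 and 39093 CPM in Iw4. In basal libraries it was 2355, 3621 and 10862 CPM and 13979, 4461 and 2824 CPM, which is 7.22% to 17.9% of the luminal level of the same sort. M4 replicate 6 and Iw4 replicate 3 were the highest in both cell types. The Csn2 promoter is shown with TTCNNNGAA in capitals, as the gene is a classical target of prolactin signalling through STAT5. Its window is chr5:87699376-87699675 (minus strand, GRCm38.p6, RefSeq).
Csn2: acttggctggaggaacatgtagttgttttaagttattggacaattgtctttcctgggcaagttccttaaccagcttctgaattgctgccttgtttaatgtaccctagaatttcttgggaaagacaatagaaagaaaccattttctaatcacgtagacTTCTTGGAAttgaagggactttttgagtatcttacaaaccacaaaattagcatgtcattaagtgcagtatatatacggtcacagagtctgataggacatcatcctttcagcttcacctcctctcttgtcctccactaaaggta

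That window held 1 match. Of the 8 milk protein windows found, 4 held the string (50%), against 6.88% of all windows. CCAAT and TTTGAA were in 3 each (37.5%), and the other 3 strings in 0 of them.

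**Figure D4:**
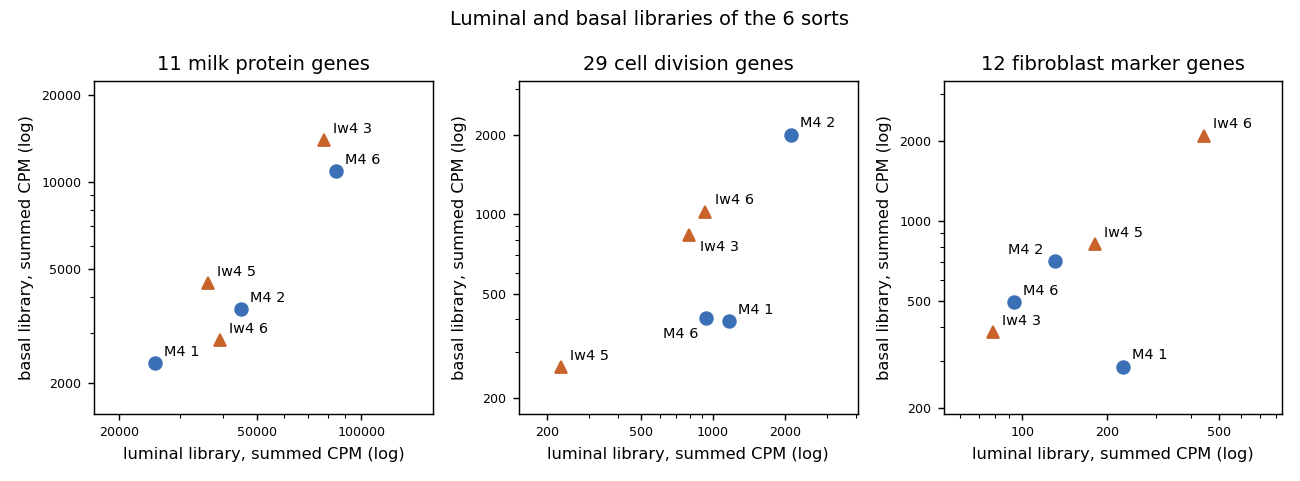
Summed CPM of 11 milk protein, 29 cell division and 12 fibroblast marker genes in the basal library (y axis, log) against the luminal library (x axis, log) of the same sort, for the 3 M4 (circles) and 3 Iw4 sorts (triangles), labelled by replicate. For milk proteins the sorts M4 replicate 6 and Iw4 replicate 3 are high in both cell types, and the groups overlap in all 3 lists except for the luminal cell division sums, which lie at 229 to 930 CPM in Iw4 and 933 to 2133 CPM in M4.

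Fibroblast markers were higher in parous libraries on average but with 0 of the 12 at an unadjusted p under 0.05. The median log2 fold change was 0.74 in luminal and 0.74 in basal cells, with 10 of 12 above 0 in each (51.6% and 48% of all genes). Within batches the medians were -0.07, 1.12 and 1.30 in luminal and -1.06, 1.85 and 1.32 in basal cells. Leaving out single replicates gave medians from 0.53 (without Iw4 replicate 6) to 1.28 (without Iw4 replicate 3) in luminal and from 0.34 to 1.44 in basal cells, with the same replicates left out. In luminal cells 4 of the 12 had an unadjusted p under 0.05 without Iw4 replicate 3, all higher (333 of all genes), and 4 in the fit of the 12 libraries with batch (1230 of all genes). The median was 1.49 with a pseudocount of 0.1, 1.80 with a mean of at least 5 CPM and 1.76 with edgeR. The summed luminal level was 228, 130 and 93.6 CPM in M4 and 79.0, 181 and 444 CPM in Iw4, and Iw4 replicate 6 was the highest library in both cell types. Dcn (decorin) had the highest mean of the list, and no marker was at 0 in all libraries of a cell type. The collagen gene Col1a1 was at 30.1, 82.9 and 105 CPM in M4 and at 76.3, 146 and 535 CPM in Iw4 basal libraries (1.49, SE 1.17), and Col3a1 at 19.9, 95.2 and 74.8 CPM against 52.2, 125 and 479.6 CPM (1.47, SE 1.29). Fibronectin (Fn1), which fibroblasts also make, was at 13.1, 65.2 and 45.3 CPM against 64.9, 113 and 262 CPM (1.84, SE 0.92, unadjusted p = 0.0533). The antibodies of the lineage-negative gate are listed as against CD11b, CD45, Ly-6G/Ly-6C, Ter-119, CD31 and human CD140a, the product of the fibroblast marker Pdgfra. Pdgfra was at 7.02, 16.6 and 14.5 CPM in M4 and at 11.2, 38.3 and 29.1 CPM in Iw4 basal libraries (0.91, SE 1.07). The part of fibroblasts in these reads was not tested.

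The list of matrix and basement membrane genes, which holds Fn1, had 21 of 28 genes above 0 in luminal cells (51.6% of all genes) with a median of 0.17, and 13 of 28 in basal cells (48% of all genes) with a median of -0.04. None had an unadjusted p under 0.05 in either (limma). In luminal cells 10 did in the fit of the 12 libraries with batch (1230 of all genes), and 6, all higher, without Iw4 replicate 3 (333 of all genes). The laminin chain Lamb3 was at 321, 282 and 253 CPM in M4 and at 209, 234 and 203 CPM in Iw4 basal cells (-0.40, SE 0.43), and the basement membrane proteoglycan Hspg2 at 645, 648 and 761 CPM against 503, 542 and 652 CPM (-0.28, SE 0.33). Markers of endothelial cells summed to 7.01 to 31.9 CPM in luminal and 38.3 to 196 CPM in basal libraries, with Pecam1 the highest. Those of macrophages summed to 10.9 to 22.5 CPM and 11.5 to 23.0 CPM, with Lyz2 the highest. Their medians were -0.04 and 0.21 (endothelial) and 0.30 and 0.19 (macrophage), and 1 of the 12 macrophage markers was at 0 in all 6 luminal libraries.

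Genes of antigen presentation and the interferon response were slightly above 0 in both cell types. In luminal cells 20 of the 27 genes in the table were above 0 (51.6% of all genes), with a median of 0.32. The groups of 4 did not overlap with Iw4 higher (4.5% of all genes), among them Isg15, Irf7 and Tap2. Isg15, an interferon-induced ubiquitin-like protein, was at 3.43, 2.17 and 4.68 CPM in M4 and at 9.02, 7.51 and 5.62 CPM in Iw4 (0.94, SE 0.45, unadjusted p = 0.0418). It was the only one of the list under 0.05, and 5 were in the fit of the 12 libraries with batch (1230 of all genes). Irf7, a transcription factor of the interferon response, was at 4.94, 4.35 and 3.74 CPM against 8.89, 9.73 and 6.13 CPM (0.78, SE 0.43, 95% interval -0.10 to 1.65). Its 3 within-batch differences were 0.89, 0.85 and 0.59. The medians of the list within batches were 0.14, 0.27 and 0.38. In basal cells 21 of 27 were above 0 (48% of all genes) with a median of 0.18, the groups of 1 did not overlap with Iw4 higher (4.2% of all genes), and 0 had an unadjusted p under 0.05. Summed over the list, luminal levels were 2765, 3201 and 2082 CPM in M4 and 3803, 3136 and 3323 CPM in Iw4.

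Of the acute phase and milk defence proteins, 1 of 18 was higher at an unadjusted p under 0.05 in luminal cells (0.861% of all genes), which was Hp. The medians were 0.09 in luminal and 0.18 in basal cells. In basal cells 15 of the 18 were above 0 (48% of all genes), but 10 without Iw4 replicate 3. Within batches the basal medians were 0.66, 0.32 and -0.44. There 0 basal genes of the list had an unadjusted p under 0.05, against 4 in the fit of the 12 libraries with batch (960 of all genes). Saa1, a serum amyloid gene whose reads counting may split with its near-identical copy Saa2, was at 77.2, 53.0 and 137 CPM in M4 and at 53.0, 48.6 and 21.6 CPM in Iw4 in luminal cells (-1.09, SE 0.80), and was at 53.0 CPM in both libraries of batch 1. Lcn2, the iron-sequestering lipocalin that had the highest mean of the list, was at 3149, 2465 and 3563 CPM against 4261, 5440.3 and 1531 CPM (0.12, SE 0.47). Milk fat and lipid synthesis genes had a median of 0.14 in luminal and 0.00 in basal cells, and 0 of 27 had an unadjusted p under 0.05. Xdh, which builds the coat of milk fat droplets, was at 127, 128 and 308 CPM against 277, 353 and 197 CPM in luminal cells (0.65, SE 0.42).

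None of the receptors for ovarian and pituitary hormones was called between the groups. Esr1, the oestrogen receptor, was at 101, 63.2 and 64.8 CPM in M4 and at 81.6, 71.9 and 46.6 CPM in Iw4 luminal cells (-0.20, 95% interval -0.92 to 0.53). Pgr, the progesterone receptor, was at 101, 59.0 and 35.7 CPM against 115, 159.9 and 42.1 CPM (0.62, -0.78 to 2.02), and the prolactin receptor Prlr at 2733, 1239.5 and 1446 CPM against 1633, 2965 and 938 CPM (-0.04, -1.66 to 1.59). The groups overlapped for all 3. The interval of Prlr reached past a 2-fold change in both directions and that of Pgr in the higher one, so similar levels were not shown for them. Areg, the EGF family ligand that oestrogen induces, was between 41.9 and 274 CPM in M4 and between 49.9 and 143 CPM in Iw4 (-0.66, SE 0.79). The list of steroid receptors and their luminal signals had medians of -0.10 (luminal) and 0.08 (basal), that of prolactin and STAT5 signalling 0.10 and -0.09, and 0 of the 15 and of the 13 genes had an unadjusted p under 0.05. Elf5, a factor of the alveolar lineage, was at 219.8, 228 and 325 CPM against 259, 311 and 304 CPM (0.20, SE 0.52), and Kit, a receptor of luminal progenitors, at 319, 344 and 389 CPM against 263, 438 and 222 CPM (-0.25, SE 0.58). The progenitor and hormone-sensing lists had luminal medians of -0.16 and -0.04 and basal medians of 0.20 and 0.00, with 0 of 13 and 0 of 11 genes at an unadjusted p under 0.05 in either cell type. Within batches the basal medians were 0.38, 1.17 and -0.62 (progenitor) and 1.21, 0.11 and -1.20 (hormone-sensing). Leaving out single replicates gave basal hormone-sensing medians from -0.42 to 0.58.

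Contractile and basal cell genes also overlapped between the groups. Acta2 was at 9303, 5251 and 5891 CPM in M4 and at 5418, 6533 and 9911 CPM in Iw4 basal cells (0.10, 95% interval -1.16 to 1.35), and the oxytocin receptor Oxtr, through which milk ejection is triggered, at 973, 564 and 995 CPM against 572, 1046 and 789 CPM (-0.07, -1.65 to 1.51). Over 20 genes the basal median was 0.13, with 0 at an unadjusted p under 0.05. Trp63, the transcription factor that defines the basal lineage, was at 619.9, 659 and 595 CPM against 469.9, 538 and 605 CPM (-0.22, SE 0.68).

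Of the signalling pathways, the Wnt list had 2 basal genes higher and 1 lower of 43 at an unadjusted p under 0.05 (1.19% and 0.697% of all genes). They were Dkk2 (above), the secreted antagonist Frzb, at 0.509, 0.460 and 0 CPM against 0, 3.09 and 1.14 CPM (0.66, SE 0.29), and the receptor Fzd3, at 78.2, 65.6 and 72.9 CPM against 35.7, 39.0 and 51.0 CPM (-0.78, SE 0.36). The Fzd3 groups did not overlap, whereas those of Frzb did. Both Dkk2 and Frzb had libraries under the level of 3 reads. Without Iw4 replicate 5, which had the highest Dkk2 and Frzb, 0 basal genes of the list were under 0.05 (322 of all genes). Lgr5, a receptor for R-spondins, was at 209, 109 and 157 CPM against 70.9, 141 and 93.3 CPM (-0.64, SE 0.58). The Wnt medians were -0.01 in luminal and -0.07 in basal cells. Those of the Notch list (17 genes) were -0.14 and 0.03, of TGF-beta, activin and BMP signalling (22 genes) -0.07 and -0.06, and of the EGF family (12 genes) 0.01 and 0.08, with 0 genes at an unadjusted p under 0.05. In the TGF-beta list 3 basal genes did not overlap with Iw4 lower (4.47% of all genes), which were Smad7, Smad6 and Id4. The inhibitory Smad7 was at 171, 114 and 112 CPM against 98.9, 72.9 and 84.2 CPM (-0.61, SE 0.34). In the IGF list Igfbp3, lower in basal cells, was the only one of 13 under 0.05 (0.697% of all genes), and Igfbp5, the binding protein associated with involution, was at 5841, 4279 and 5801 CPM against 4851, 5769 and 6273 CPM in basal cells (0.09, SE 0.46). Circadian clock genes had medians of 0.13 in both cell types, and immediate early genes, which respond to tissue dissociation, 0.20 in luminal and -0.14 in basal cells. Without Iw4 replicate 5 the luminal medians of these lists were -0.14 (clock) and -0.13 (immediate early).

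The genes that differed between lactation and the virgin gland had medians close to 0 between Iw4 and M4. The 708 luminal genes called higher at L10 than at W10, with a median log2 fold change of 1.78, had a median of 0.07 between Iw4 and M4. Of them 62.3% were above 0 (51.6% of all genes), and the groups of 29 (4.10%) did not overlap with Iw4 higher (4.5% of all genes). The 525 luminal genes called lower at L10 (median -1.59) had a median of -0.14, with 68.4% below 0 (47.2% of all genes) and 37 (7.05%) that did not overlap with Iw4 lower (4.06% of all genes). Without M4 replicate 1 both medians were 0.01. In basal cells the 1210 genes called higher at L10 (median 2.29) had a median of 0.08, with 60.8% above 0 (48% of all genes) and 69 (5.70%) that did not overlap with Iw4 higher (4.2% of all genes). The 884 called lower (median -1.75) had a median of -0.05, with 56.0% below 0 (51.7% of all genes) and 78 (8.82%) that did not overlap with Iw4 lower (4.47% of all genes). Within batches the medians of the genes called higher were 0.08, 0.20 and -0.02 in luminal and -0.17, 0.25 and 0.12 in basal cells. Those of the genes called lower were 0.05, -0.26 and -0.18 and 0.00, -0.12 and -0.06. The sign thus differed between batches for 3 of these 4 sets.

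Over the 8 time points several of the leading genes differed more between stages than between Iw4 and M4. Basal Igfbp3 had a mean of 271 CPM at W10, 538.5 CPM at P3.5 and 27.9 CPM at Id2, beside 331 CPM at M4 and 137 CPM at Iw4. Basal Lrp1b had a mean of 11.5 CPM at Iw4 and 2.92 CPM at M4. It was at 5.01 CPM at W10, 3.02 CPM at P3.5 and 18.3 CPM at pregnancy day 14.5. In lactation it was at 33.8 CPM at L3 and 13.3 CPM at L10, but at Id2, which lies between L10 and Iw4, at 0.280 CPM. Basal Brinp1 was at 31.2 CPM at Iw4 and between 0.754 and 8.79 CPM at the other 7 time points. Luminal Fbn2 was at 20.9 CPM at M4 and at 4.95 CPM at W10, which is also a virgin gland, and basal Fbn2 was at 1.67 CPM at L10. Luminal Hp was highest at Iw4 (274 CPM), followed by Id2 (107 CPM) and M4 (80.7 CPM). Luminal Top2a was highest at P3.5 (312 CPM), and W10, at 26.8 CPM, was below Iw4 (52.3 CPM) and M4 (160.2 CPM). The other time points were amplified in other batches than these 12 libraries, and of them only L3 was sequenced in the same lane. Where M4 or Iw4 is set beside them, stage and amplification batch therefore cannot be told apart. Batch 4 held W10 and Id2, batch 5 the lactation time points and batch 6 the pregnancy time points. Within each of these pairs the stages differed in lane but not in batch, and across the pairs they differed in both. No test was made of the stage differences given here.

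**Figure D5:**
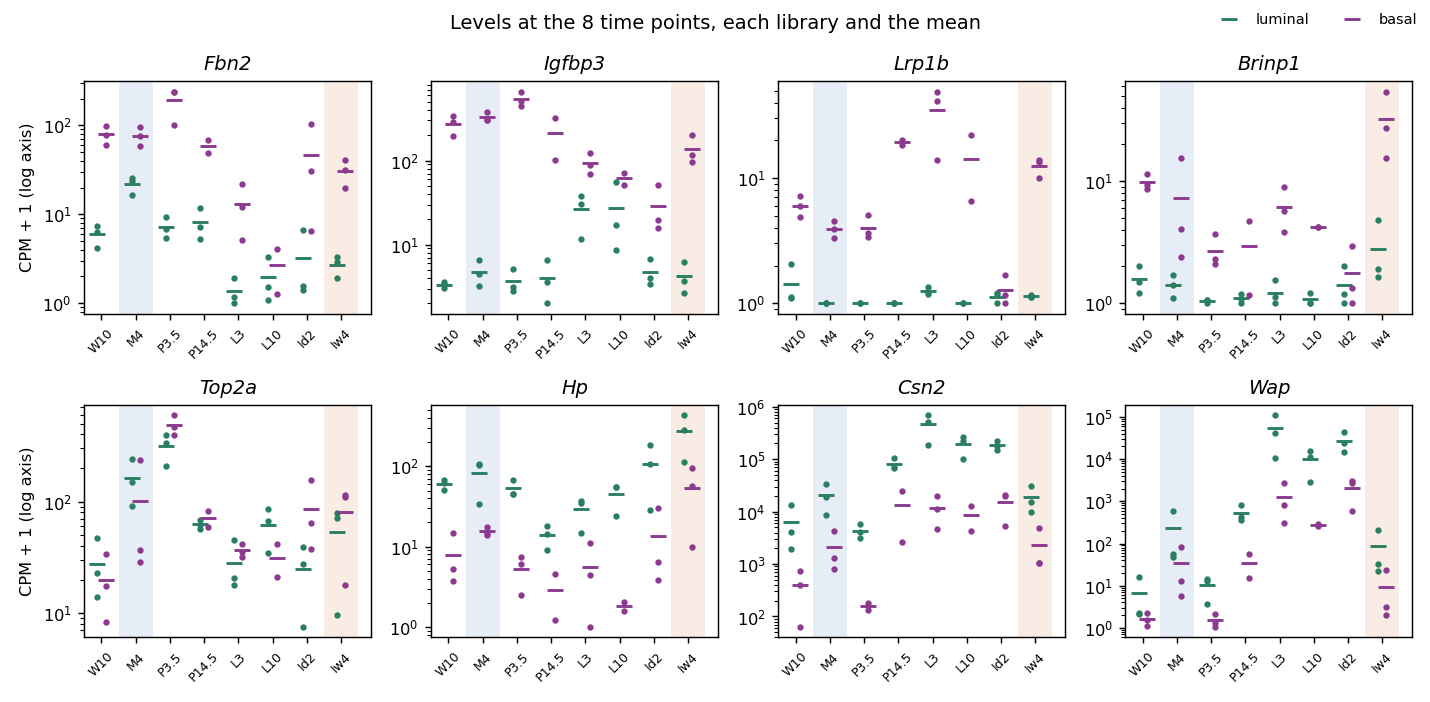
CPM + 1 (log axis) of 8 genes at the 8 time points in luminal and basal libraries, with points for libraries and bars for means, and with M4 shaded blue and Iw4 shaded orange. Basal Brinp1 is highest at Iw4 (31.2 CPM), luminal Fbn2 is highest at M4 (20.9 CPM), and luminal Csn2 and Wap are far higher in lactation than at M4 or Iw4. Basal Csn2 libraries of L10 (from 4343 CPM) overlap those of Iw4 (up to 4982 CPM).

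Between the cell types, the contrast differed at an adjusted p of 0.132 for Tmem215 (basal minus luminal -1.53, SE 0.29), the smallest of the genes named here. The luminal levels of Tmem215 and Lrp1b were under 3 reads, so that for them a difference only repeats the basal change. It was 1.59 for Brinp1 (SE 0.72) and 1.69 for Fbn2 (SE 0.90), of which the latter was at lower levels in parous libraries of both cell types. For Hp the difference was -0.43 (SE 1.11). With 3 libraries in a group none of these passed the adjusted threshold.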

How the data were processed

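The authors mapped the reads to mm9 with GSNAP, assigned them to Ensembl genes with HTSeq and normalized the counts with edgeR. The deposited signal is the count scaled by the authors to CPM with the effective library size, after genes with few reads had been removed. Every column was used (0 were left out). Each value was a whole multiple (tolerance 0.001) of the CPM of 1 read for 100% of the values, so reads were recovered. Gene names came from a later annotation, in which 16897 of the identifiers were found and 181 were not.

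Log2(CPM + 1) of all 46 libraries was fitted with limma 3.58.1 under R 4.3.3 (trend method), in which the 8 time points of both cell types were 16 separate groups. Genes past a 2-fold change whose Benjamini-Hochberg adjusted p over all 17078 genes was under 0.01 were called. All p-values of single genes are from this model unless edgeR is named, and adjusted p-values are over all genes. Replicates were separate sorts of pooled mice. Luminal and basal libraries of the same replicate came from the same animals, and their deviations from the group means correlated at 0.412 to 0.527 (6 sorts). M4 and Iw4 share only the number 6, which pairs no animals. Deviations of M4 and Iw4 libraries of an amplification batch correlated at 0.140 to 0.362 in luminal and at -0.087 to 0.330 in basal cells.

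The alternatives were a pseudocount of 0.1, median ratio scaling, a mean of at least 5 CPM, edgeR 4.0.16 on the recovered reads, the spread of the 12 libraries with and without amplification batch, the sort as a block, other thresholds and leaving out each sort. Within a list, genes were named for the highest mean or the largest change. The rule for called genes (largest change, at least 5 CPM in the higher group, same sign in each batch) named 0 genes, and the leading genes were taken by the rule given with them. Other genes were named after their values were seen, as receptors and markers or for groups that did not overlap. The members, lists and tests were chosen with earlier results of these data known. Of the leading genes and list members, 3 are not reported here. Lists with under 80% of their genes in the table were not read. Intervals and floors of reads cover counting error only where they rest on reads, because amplification copies molecules. In promoter windows 6 strings were searched for 2 lists.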

Additional observations from a re-analysis of the deposited data

Results flagged for a closer look

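Bcat1, the cytosolic branched-chain aminotransferase, had opposite directions in the cell types in all 3 batches. In basal cells each parous library was below each nulliparous one (9.56, 10.0 and 11.0 CPM in M4 and 3.03, 0.941 and 5.39 CPM in Iw4). In luminal cells the values were 0, 0.104 and 0 CPM in M4 and 0.258, 0.171 and 0.255 CPM in Iw4, all under the level of 3 reads. The basal minus luminal difference of the contrast was -1.85 (limma, unadjusted p = 0.0156, adjusted p = 1), and the luminal direction cannot be read at this depth.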

How the results depend on the processing

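The number of luminal genes called (0) became 1 with the spread of the 12 libraries alone and 1 with amplification batch in that fit, which was Fbn2 in both, and was 0 to 1 over the fits that left out a replicate. The basal number (1) became 0 with a mean of at least 5 CPM, 0 with edgeR, 0 with the spread of the 12 libraries and 0 with batch, 2 at an adjusted p under 0.05 with any fold change, and 0 to 3 when a replicate was left out (0 without Iw4 replicate 3, 2 without Iw4 replicate 5, 3 without M4 replicate 6). Besides Tmem215 and Brinp1, those calls were Gm16087, higher in parous cells (adjusted p = 0.00072 without Iw4 replicate 5), and Glb1l3, lower (adjusted p = 0.00358 without M4 replicate 6), both named after their values were seen. The difference between the cell types was called for 0 genes under each alternative. With the sort as a replicate block the counts were 0 luminal, 1 basal and 0 for the difference, so this pairing changed no call. With the spread of the 12 libraries, 743 luminal and 713 basal genes had an unadjusted p under 0.05, and with batch 1230 and 960. Of the lists other than those of cell division, matrix, fibroblast and antigen presentation genes, 0 to 5 members did in the fit with batch. The number was 5 of 43 in the basal Wnt list and 4 of 18 in the basal list of acute phase and milk defence proteins. The luminal median of the fibroblast markers was 1.49 with a pseudocount of 0.1, 1.80 with a mean of at least 5 CPM and 1.76 with edgeR. Leaving out a replicate turned the sign of some list medians, with milk proteins at -0.48 to 0.40 in luminal and -0.61 to 0.70 in basal cells and cell division genes at -0.62 to 0.62 in basal cells. A 2-fold change lay outside the 95% interval in both directions for 59.0% of luminal and 59.7% of basal genes, and for 78.7% and 78.1% in the fit of the 12 libraries with batch.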

Other observations

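Pericyte markers, all 7 of which are in the table, summed to 128 to 159 CPM in luminal libraries, with Notch3 the most abundant, and to 166 to 413 CPM in basal libraries, with Rgs5 the most abundant. Their median log2 fold change was 0.10 in luminal and 0.27 in basal cells. The basal sums were 166, 241 and 251 CPM in M4 and 197, 400.1 and 413 CPM in Iw4. Of the macrophage markers, 3 of 12 in luminal cells (Csf1r, Mrc1 and Aif1) did not overlap with Iw4 higher (4.5% of all genes), at levels up to 1.92 CPM. The lists of B and plasma cells (1 of 8 genes in the table), T and NK cells (4 of 9), adipocytes (4 of 8) and erythroid cells (4 of 6) were not read. For 5 of 6 Schwann cell markers, the medians were 0.34 in luminal and 0.02 in basal cells, with Sox10, which mammary epithelial cells also express, the most abundant. The 9 luminal sort markers had medians of -0.06 in luminal and 0.17 in basal cells, and the 9 basal sort markers 0.16 and -0.08.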
